A study of Mus musculus with 18 samples.

Results

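Of the 35 named genes of mitochondrial and peroxisomal fatty acid oxidation, 33 were measured in NaF mouse mammary carcinoma cells, among 22180 genes in all. Members were taken by gene symbol, with 1 probe set each. They were sorted as 21 genes of mitochondrial steps (Acad11 among them), 8 of peroxisomal steps, and 4 that activate fatty acids or hydrolyse their coenzyme A (CoA) esters. Acsl1 had no probe set of its own among those analysed, and the only probe set of Acsl3 was shared with Utp14b, so neither was used. After GW1516, a PPARd agonist, 3 of 33 members passed an adjusted p of 0.05 in limma, where 2.57% of all genes did. These were Acsl4, Acadl and Acadm, higher by 1.37-fold to 1.60-fold, and no member passed on the lower side. Each of these calls was lost under 6 to 11 of 17 alternative settings. No member passed the threshold after all-trans retinoic acid, TTNPB or palmitate, where 5.29%, 1.26% and 0.681% of all genes did.

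Expression was measured on 18 Affymetrix arrays, 6 groups of 3, to follow the genome-wide response to ligands of RAR (the retinoic acid receptor) and of PPARd (peroxisome proliferator-activated receptor delta). In 4 groups, full medium was exchanged for DMEM with 10% charcoal-treated FBS, which holds few small lipids and hormones, 48 hours before treatment. These were controls without ligand (charcoal controls), cells given all-trans retinoic acid (1 µM), cells given TTNPB (1 µM) and cells given GW1516 (1 µM), each ligand for 6 hours. In the other groups the cells were kept in DMEM with 10% ordinary FBS (full medium), either untreated or given 10 µM palmitate, also for 6 hours. TTNPB is a synthetic RAR agonist that carries aromatic rings where retinoic acid has most of its flexible polyene chain. All groups are of 1 cell line, no strain or genetic change is given in the sources used here, and no vehicle is named for the controls. The labels do not say that replicates came from separate cultures, so p-values measure the spread between these samples only, which may be technical.

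Fatty acids are burned by β-oxidation. An acyl-CoA synthetase first joins the fatty acid to CoA, and the carnitine shuttle carries long chains into mitochondria. There, acyl-CoA dehydrogenases of different chain-length preference make the first double bond and pass electrons to the electron transfer flavoprotein. A hydratase, a 3-hydroxyacyl-CoA dehydrogenase and a thiolase then complete each turn of the cycle and release acetyl-CoA. Peroxisomes run a parallel cycle, opened by acyl-CoA oxidases, for very long and branched chains, which enter through ABCD transporters. PPARs, bound to RXR at repeats of AGGTCA, are known activators of many of these genes, and RAR binds related repeats.

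The promoters of the genes that rose were examined for these letters in RefSeq sequence of GRCm38.p6. A window from 250 bases before to 50 after the start was held for 28 members, in 29 windows. A repeat of AGGTCA after any 1 letter (DR1), with at most 2 of its letters off on either strand, was found in 3.86% of all 32851 windows and in 2 of the 29 member windows, those of Echs1 and Etfa. A repeat of AGGTCA after any 5 letters (DR5), under the same allowance, was found in 2.79% of all windows and in 0 member windows. Neither repeat was found in the windows of the 3 genes that rose with GW1516. The single element AGGTCA, chosen for search after the values were seen and contained in both repeats, was present without a mismatch in 16.3% of all windows. It was present in 3 of 29 member windows (10.3%), those of Acadm, Acadvl and Echs1.

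The 250 bases before the start are shown for Acadm and Acadl, 2 acyl-CoA dehydrogenase genes that rose together, so that a window with the element can be set beside one without it. The window of Acadm is chr3:153944644-153944893 on the minus strand, and that of Acadl is chr1:66863310-66863559 on the minus strand. Capitals mark AGGTCA on either strand, which in Acadm reads TGACCT at -249 to -244 from the start. This element lies at the edge of the window, so a repeat reaching further upstream could not be found by the search. The window of Hadhb, chr5:30155003-30155252 on the plus strand, is shown because Hadha and Hadhb, which encode the 2 subunits of the mitochondrial trifunctional protein, start on opposite strands from the same stretch. Capitals there mark the 228 bases that lie in the windows of both genes.
Acadm: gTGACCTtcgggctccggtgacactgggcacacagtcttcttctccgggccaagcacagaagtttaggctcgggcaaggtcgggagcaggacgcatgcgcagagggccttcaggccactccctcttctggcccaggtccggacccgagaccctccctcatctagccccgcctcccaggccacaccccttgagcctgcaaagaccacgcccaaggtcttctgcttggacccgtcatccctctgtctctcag
Acadl: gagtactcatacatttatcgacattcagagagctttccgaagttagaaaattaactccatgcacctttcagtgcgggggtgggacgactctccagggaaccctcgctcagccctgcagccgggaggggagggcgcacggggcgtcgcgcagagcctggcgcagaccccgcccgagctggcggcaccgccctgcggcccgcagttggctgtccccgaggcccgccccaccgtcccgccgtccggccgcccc
Hadhb: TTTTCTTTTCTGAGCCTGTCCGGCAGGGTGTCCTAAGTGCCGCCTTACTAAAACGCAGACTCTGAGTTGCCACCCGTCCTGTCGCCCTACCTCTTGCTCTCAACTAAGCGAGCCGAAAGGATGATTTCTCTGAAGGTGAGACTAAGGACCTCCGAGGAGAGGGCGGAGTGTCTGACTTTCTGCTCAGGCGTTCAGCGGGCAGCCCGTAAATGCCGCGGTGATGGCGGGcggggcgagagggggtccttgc

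The deposited log2 values of a gene are relative to its own probe set, so levels are not ordered between genes. A group mean was called above background where it exceeded the 95th percentile of 1390 olfactory and vomeronasal receptor genes in that group, which was 1.15 to 1.31 in the charcoal groups, 0.59 in full-medium controls and 0.63 with palmitate. By this measure 29 of the 33 members were above background in all 6 groups. Acaa1b, a peroxisomal thiolase, was under it in every group, with arrays between 0.11 and 0.82. Hadhb was above it in 4 groups, with values of 1.07, 1.09 and 1.04 in charcoal controls. Hadha, which starts from the same promoter stretch, was above background in all 6 groups. Decr1 and Ehhadh were above background in 5 groups, and not with palmitate.

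Array medians were 1.06 to 1.32 in the charcoal set and 0.47 to 0.55 in full medium, so the sets may have been scaled apart, and serum and scaling cannot be told apart. Levels are therefore compared within a serum. Of the luminal markers, Krt8, Krt18, Cdh1, Erbb2 and Cldn4 were above background in all 6 groups. Krt19 and Epcam were above it in 4 groups, and Elf5 and Esr1 were under it in each. All 4 hepatocyte markers and all 4 measured T cell markers were under background in every group. Of markers of other cells, the endothelial Cdh5 (group means 7.29 to 8.90), the fibroblast Pdgfra (2.26 to 5.65) and the macrophage Cd68 (0.92 to 1.82) and Cd14 (0.71 to 2.34) were above background in all 6 groups. The other endothelial markers (Pecam1, Kdr and Tek), the other macrophage markers (Adgre1, Csf1r and Lyz2) and the fibroblast Dcn and Lum were under it in each, and Col1a1, Col1a2 and Col3a1 were above it in 1 group each. The basal Trp63 and the adipocyte Plin1 were above background in 4 groups, and the basal Acta2 and the adipocyte Plin4 in 1. The basal Krt14, Myh11 and Oxtr and the adipocyte Adipoq, Lep, Cidec and Fabp4 were under it in each. In bulk RNA, fewer cells of a type and less RNA per cell cannot be told apart. Replicate 3 of GW1516 stood apart from its group, with a mean absolute deviation over all genes of 0.231, against 0.0816 to 0.145 on the other 17 arrays. Its receptor-gene median was 0.995, against 0.715 and 0.677 in its group. Calls of members with GW1516 are also given without this array.

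With GW1516, 3 of 33 members rose and 0 fell at an adjusted p below 0.05 (limma, 18 arrays, Benjamini-Hochberg over all genes), where 2.57% of all genes were called and 1.89% were called higher. At an unadjusted p below 0.05, 9 members were higher and 2 lower, against 8.04% and 7.34% of all genes. The 3 GW1516 arrays did not overlap with the 3 controls for 11 members on the higher side and 2 on the lower, against 8.25% and 8.03% of all genes. Among mitochondrial steps, 2 of 21 genes rose, and the median difference over the 20 above background was 0.13. Among peroxisomal steps, 0 of 8 genes were called by limma, with 2 higher and 0 lower at an unadjusted p below 0.05, and the median over the 7 above background was 0.09. The same median over all genes above background was 0.01. The mitochondrial median was 0.023 without GW1516 replicate 3, 0.047 without charcoal replicate 2 and 0.0077 with array weights, and the peroxisomal median was 0.0062 without charcoal replicate 2 and 0.20 without GW1516 replicate 3. Of the 31 members above background in both groups, 20 had a difference above 0 (51.2% of all such genes).

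**Figure D1:**
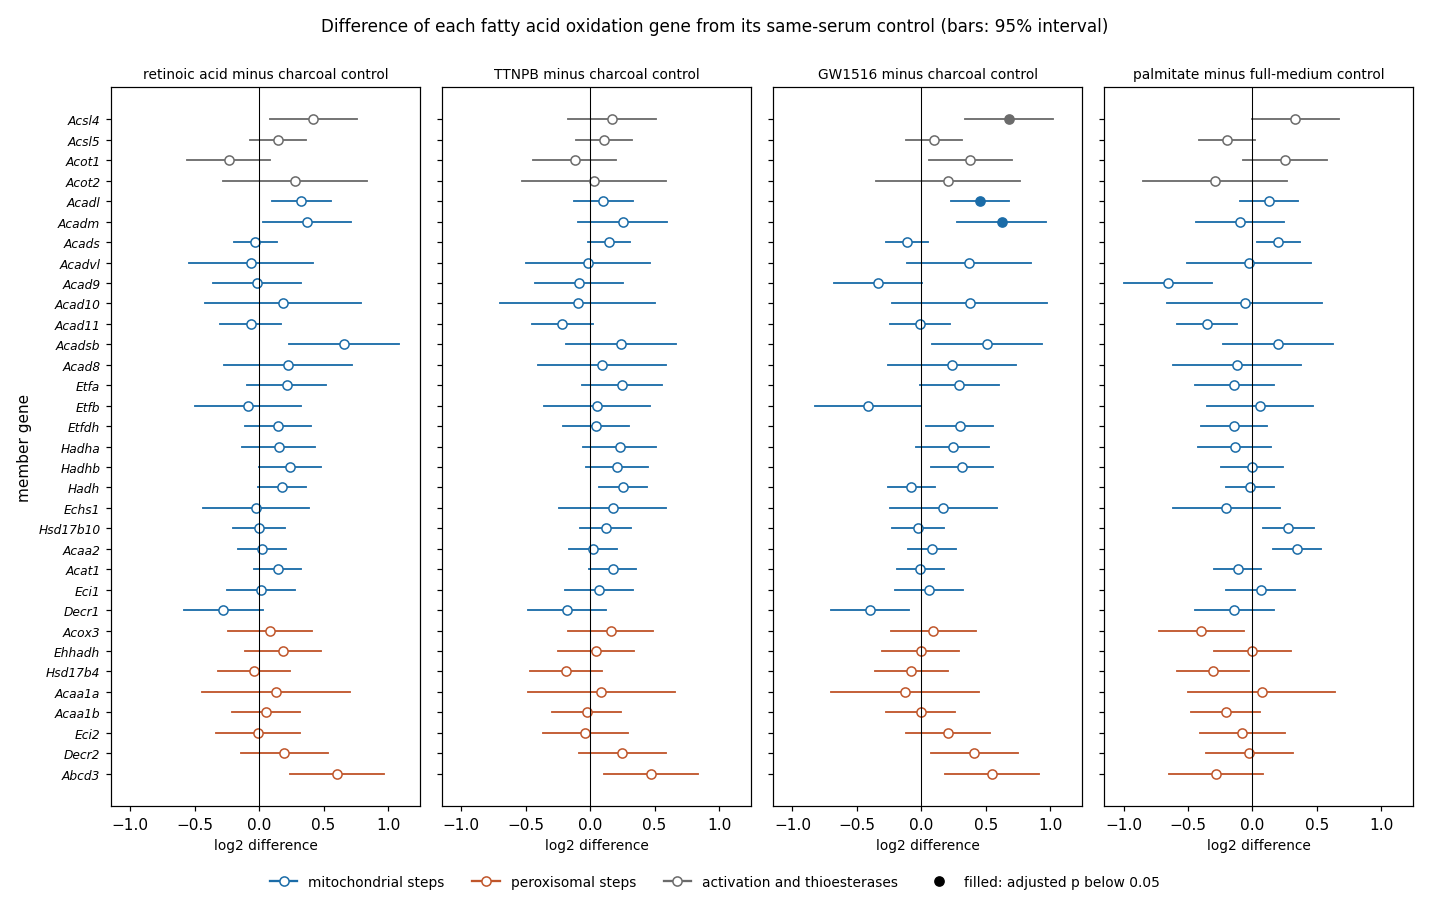
Log2 difference of each of the 33 measured members from the control of the same serum (x axis), 1 panel per treatment and 1 row per gene, with points for the limma estimate and bars for the 95% interval; colours separate mitochondrial, peroxisomal and activation or thioesterase genes. Filled points mark an adjusted p below 0.05, which only Acsl4 (0.68), Acadl (0.45) and Acadm (0.62) reached, all with GW1516.

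Acsl4 encodes a long-chain acyl-CoA synthetase with a known preference for arachidonate and other polyunsaturated fatty acids. Its log2 values were 7.46, 7.36 and 7.24 in charcoal controls, 7.86, 7.86 and 8.38 with GW1516, 7.71, 7.89 and 7.73 with retinoic acid, and 7.64, 7.43 and 7.50 with TTNPB. All GW1516 and all retinoic acid arrays lay above the controls, and the TTNPB arrays overlapped with them. The GW1516 difference was 0.68 ± 0.16 (SE, n = 3 against 3), or 1.60-fold, with an adjusted p of 0.0302 in limma. The retinoic acid difference was 0.42 ± 0.16 (adjusted p = 0.171). Without GW1516 replicate 3, which was the highest of its group, the GW1516 difference was 0.51 (adjusted p = 0.0757). Leaving out charcoal replicate 1, 2 or 3 gave adjusted p-values of 0.0623, 0.100 and 0.0973.

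Acadl encodes the long-chain acyl-CoA dehydrogenase. Its values were 6.25, 6.10 and 6.33 in charcoal controls, 6.62, 6.73 and 6.71 with GW1516, 6.68, 6.54 and 6.45 with retinoic acid, and 6.18, 6.27 and 6.54 with TTNPB. The GW1516 arrays were close together and all above the controls, as were those of retinoic acid. The GW1516 difference was 0.45 ± 0.11 (SE), or 1.37-fold, with an adjusted p of 0.0310. Retinoic acid gave 0.33 ± 0.11 (adjusted p = 0.0971) and TTNPB 0.10 ± 0.11. Without GW1516 replicate 3 the gene stayed past the threshold, at 0.44 (adjusted p = 0.0396). It did not without charcoal replicate 1 (0.0789) or 2 (0.140), or without GW1516 replicate 2 (0.0667).

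Acadm encodes the medium-chain acyl-CoA dehydrogenase, a textbook PPAR target whose human deficiency is the best known defect of β-oxidation. Its values were 6.18, 5.71 and 6.06 in charcoal controls, 6.37, 6.43 and 7.02 with GW1516, 6.19, 6.48 and 6.39 with retinoic acid, and 6.41, 6.04 and 6.26 with TTNPB. GW1516 replicate 3 was the highest of all arrays and charcoal replicate 2 the lowest of the 12, and the GW1516 and control arrays did not overlap. The GW1516 difference was 0.62 ± 0.16 (SE), or 1.54-fold, with an adjusted p of 0.0497, just inside the threshold. Without GW1516 replicate 3 it was 0.41 (adjusted p = 0.121), and without charcoal replicate 2 it was 0.49 (adjusted p = 0.216). With array weights, which lower the weight of arrays that stand apart, it was 0.35 (adjusted p = 0.119). Fitted on the 6 arrays of the comparison alone, none of the 3 genes passed, with adjusted p-values of 0.259 for Acsl4, 0.327 for Acadl and 0.436 for Acadm. In that fit limma called 3 genes of all 22180. Over 17 alternatives, the call was lost under 11 for Acadm, 7 for Acadl and 6 for Acsl4.

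**Figure D2:**
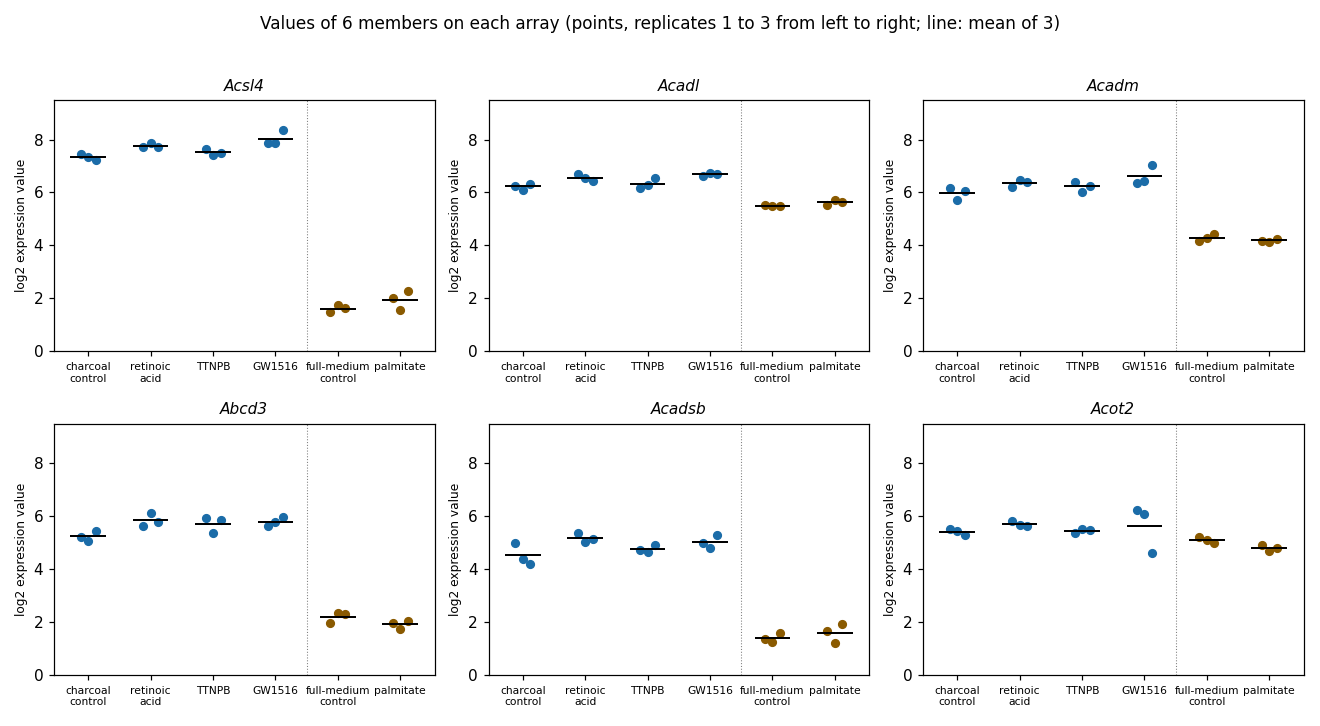
Deposited log2 values (y axis) of Acsl4, Acadl, Acadm, Abcd3, Acadsb and Acot2 on each array, with replicates 1 to 3 as points from left to right and the group mean as a line; the dotted line separates the charcoal set (blue) from full medium (brown). The GW1516 points of Acsl4 (7.86, 7.86 and 8.38) lie above all 3 control points, while those of Acot2 (6.22, 6.08 and 4.59) lie on both sides of them.

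Acot2 and Acot1 are neighbouring genes for acyl-CoA thioesterases, mitochondrial and cytosolic respectively, and known PPAR targets. Acot2 read 5.52, 5.44 and 5.30 in charcoal controls and 6.22, 6.08 and 4.59 with GW1516. Replicates 1 and 2 of GW1516 were the highest of the 12 charcoal-set arrays and replicate 3 the lowest. The difference was 0.21 ± 0.27 (SE, adjusted p = 0.765) with all arrays and 0.73 (adjusted p = 0.0015) without replicate 3. Acot2 read 5.81, 5.67 and 5.62 with retinoic acid and 5.37, 5.50 and 5.48 with TTNPB. The retinoic acid arrays lay above the controls, at 0.28 ± 0.27 (adjusted p = 0.690). In full medium Acot2 read 5.20, 5.11 and 4.97, and 4.89, 4.70 and 4.80 with palmitate, where every array was below the controls (-0.29, adjusted p = 1).

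Acot1 read 6.28, 6.05 and 6.26 in charcoal controls and 6.44, 6.49 and 6.81 with GW1516, a difference of 0.38 ± 0.15 (SE) without overlap (adjusted p = 0.228). It read 6.12, 5.95 and 5.81 with retinoic acid and 5.94, 5.97 and 6.33 with TTNPB. Here the RAR ligands gave differences below 0 (-0.24 and -0.12), with arrays that overlapped the controls. The full-medium arrays were 5.19, 5.50 and 5.66, and those with palmitate 5.55, 5.60 and 5.96 (0.25, adjusted p = 0.925). The probe sets of Acot1 and Acot2, whose sequences are closely alike, could share signal, so the assignment between them is uncertain. The remaining activating enzyme, Acsl5, a synthetase of mitochondria and endoplasmic reticulum, differed by 0.10 to 0.14 with the 3 ligands and by -0.19 with palmitate, and was not called.

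Acadvl, the very-long-chain dehydrogenase that acts on the inner mitochondrial membrane, read 4.18, 3.37 and 4.31 in charcoal controls, 4.59, 4.07 and 4.31 with GW1516, 3.91, 4.03 and 3.73 with retinoic acid, and 3.89, 3.67 and 4.24 with TTNPB. All groups overlapped, and the GW1516 difference was 0.37 with a 95% interval of -0.11 to 0.85. Acadsb, which takes short branched-chain acyl-CoA from isoleucine, read 4.98, 4.38 and 4.20 in controls, 5.00, 4.78 and 5.30 with GW1516, 5.35, 5.04 and 5.15 with retinoic acid, and 4.72, 4.64 and 4.91 with TTNPB. The retinoic acid arrays were all above the controls (0.66 ± 0.20, SE, adjusted p = 0.0702, and 0.0183 without charcoal replicate 1), while those of GW1516 overlapped (0.51, adjusted p = 0.225). Acad9, a dehydrogenase that also helps assemble respiratory complex I, read 5.81, 5.80 and 5.83 in controls and 5.71, 5.68 and 5.05 with GW1516. The GW1516 arrays were all below, with replicate 3 the lowest (-0.33, adjusted p = 0.339). Acad9 read 5.83, 5.84 and 5.71 with retinoic acid and 5.86, 5.62 and 5.71 with TTNPB, on both sides of the controls. Acads, Acad8 of valine breakdown and Acad10 differed by -0.11 to 0.37 with the 3 ligands and were not called.

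Etfb, the β subunit of the electron transfer flavoprotein, read 7.69, 7.37 and 7.69 in charcoal controls and 7.57, 7.47 and 6.47 with GW1516. Replicate 3 alone lay outside the controls, and the difference was -0.41 (adjusted p = 0.324). With retinoic acid it read 7.42, 7.43 and 7.63, and with TTNPB 7.75, 7.61 and 7.54, both overlapping with the controls. The partner subunit Etfa and the dehydrogenase Etfdh, which hands the electrons on to ubiquinone, had GW1516 differences of 0.30 each without overlap (adjusted p = 0.346 and 0.240). Decr1, the mitochondrial dienoyl-CoA reductase needed for polyunsaturated chains, read 2.01, 1.85 and 1.60 in controls, 1.48, 1.24 and 1.53 with GW1516, 1.31, 1.49 and 1.82 with retinoic acid, and 1.43, 1.74 and 1.75 with TTNPB. The GW1516 arrays were all below the controls (-0.40, adjusted p = 0.169), at a signal not far above background.

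Hadha, the trifunctional α subunit, read 8.15, 8.11 and 8.15 in charcoal controls, 8.09, 8.19 and 8.86 with GW1516, 8.26, 8.32 and 8.28 with retinoic acid, and 8.46, 8.36 and 8.27 with TTNPB. All arrays of both RAR ligands lay above the controls, by small amounts (0.15 and 0.23, adjusted p = 0.657 and 0.607), and GW1516 replicate 3 was the highest. Hadhb, close to background, differed by 0.21 to 0.32 with the 3 ligands (adjusted p-values of 0.166 to 0.546). Hadh, the short-chain 3-hydroxyacyl-CoA dehydrogenase, read 8.86, 8.72 and 8.90 in controls, 9.11, 9.12 and 9.01 with TTNPB, 9.04, 9.06 and 8.90 with retinoic acid, and 8.85, 8.88 and 8.52 with GW1516. Only the TTNPB arrays were all above the controls (0.25 ± 0.09, SE, adjusted p = 0.212). Acaa2, the long-chain thiolase of the matrix, read 7.72, 7.68 and 7.73 in controls and 7.74, 7.82 and 7.82 with GW1516. It read 7.75, 7.73 and 7.71 with retinoic acid and 7.73, 7.77 and 7.69 with TTNPB. Its differences with the 3 ligands were 0.02 to 0.08. Echs1, Hsd17b10, Acat1 and Eci1, which serve the later steps or shift double bonds, differed from controls by -0.03 to 0.17 with the 3 ligands and were not called.

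**Figure D3:**
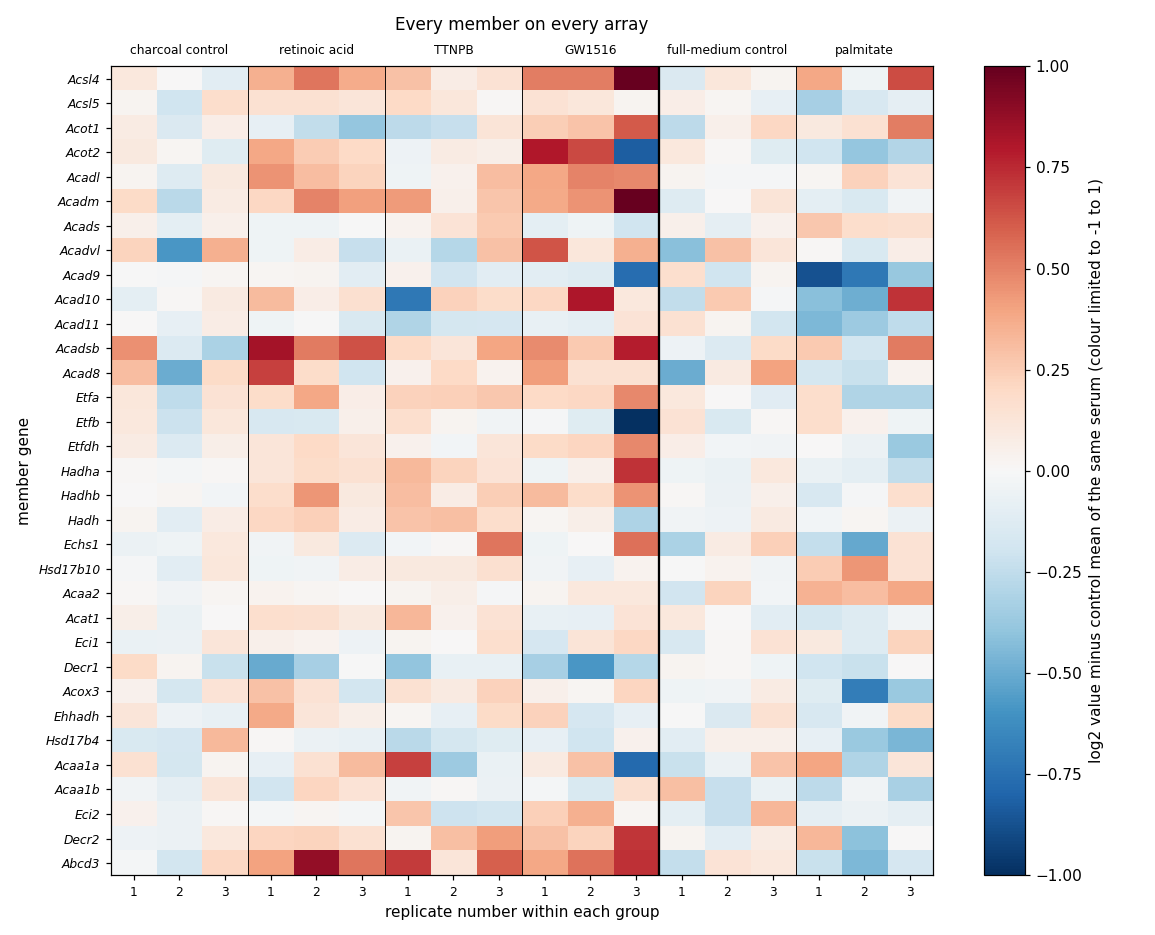
Each member on each array, shown as its log2 value minus the mean of the 3 controls of the same serum (colour, limited to -1 to 1; red above, blue below the control mean), with 33 genes as rows and 18 arrays as columns. The column of GW1516 replicate 3 holds both extremes, with Acadm and Acsl4 above the other GW1516 arrays and Acot2 (4.59) and Etfb (6.47) below them.

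Abcd3 encodes PMP70, a transporter of the peroxisomal membrane for long and branched acyl-CoA. It read 5.23, 5.06 and 5.45 in charcoal controls, 5.65, 6.12 and 5.78 with retinoic acid, 5.95, 5.37 and 5.85 with TTNPB, and 5.63, 5.79 and 5.98 with GW1516. All arrays of retinoic acid and GW1516 were above the controls, and 1 TTNPB array was within them. The differences were 0.60 ± 0.17 (SE, adjusted p = 0.0503), 0.47 ± 0.17 (0.244) and 0.55 ± 0.17 (0.105). The retinoic acid value missed the threshold by little, and passed it under 7 of 17 alternatives, quantile normalization (0.0498), the fit on its own 6 arrays (0.0230) and leaving out charcoal replicate 3 (0.0465) among them. The 3 comparisons share the same control arrays.

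The enzymes of the peroxisomal cycle showed no call with any ligand. Ehhadh, the bifunctional hydratase and dehydrogenase that is a classic PPAR target in liver, read 1.97, 1.80 and 1.77 in charcoal controls and 2.08, 1.68 and 1.77 with GW1516. It read 2.23, 1.97 and 1.90 with retinoic acid and 1.87, 1.76 and 2.04 with TTNPB. Every group overlapped with the controls, and the GW1516 difference was -0.01 (95% interval -0.30 to 0.29). Hsd17b4, the second bifunctional enzyme, for branched chains and bile acid precursors, read 5.93, 5.91 and 6.40 in controls and 6.00, 5.88 and 6.13 with GW1516. It read 6.09, 6.02 and 6.00 with retinoic acid and 5.81, 5.91 and 5.96 with TTNPB. These also overlapped, with differences of -0.08, -0.04 and -0.19 for GW1516, retinoic acid and TTNPB.

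Acox3, an oxidase that opens the peroxisomal cycle for branched chains, read 3.41, 3.20 and 3.51 in charcoal controls, 3.42, 3.39 and 3.58 with GW1516, 3.67, 3.51 and 3.19 with retinoic acid, and 3.52, 3.46 and 3.60 with TTNPB. All groups overlapped, and its differences were 0.08 to 0.16 against a standard error of 0.16. Decr2, the peroxisomal dienoyl-CoA reductase, differed by 0.41 with GW1516 (adjusted p = 0.212) without overlap. Eci2, an enoyl-CoA isomerase, and the thiolases Acaa1a and Acaa1b differed by -0.13 to 0.21 with the 3 ligands.

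**Figure D4:**
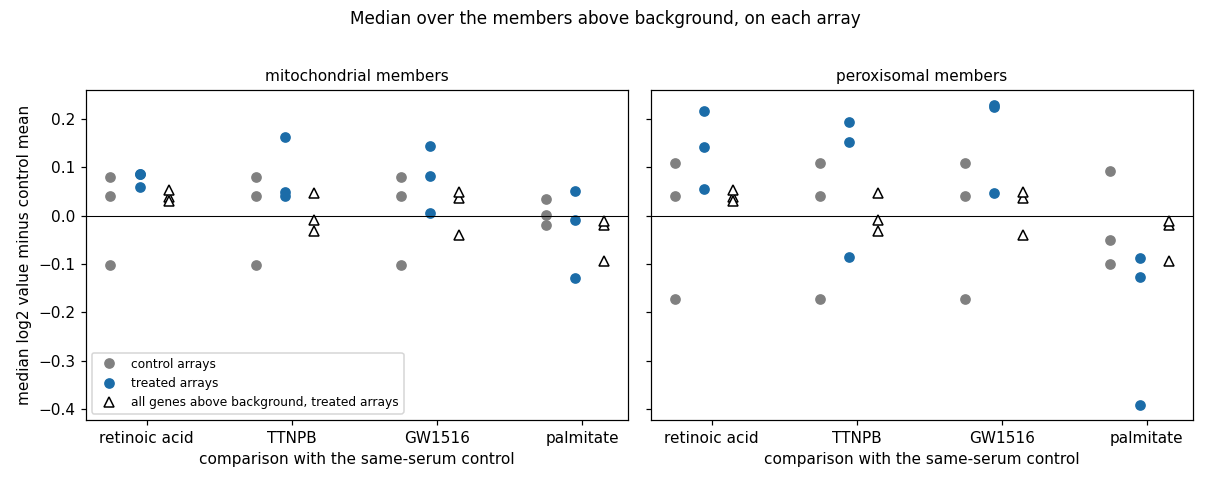
Median over the mitochondrial (left) and peroxisomal (right) members above background of the log2 value minus the control mean (y axis), for each control array (grey), each treated array (blue) and all genes above background on the treated arrays (triangles), by comparison (x axis). Treated and control arrays overlap in every comparison; the mitochondrial medians of the retinoic acid arrays, for example, are 0.06 to 0.09 and those of the controls -0.10 to 0.08.

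With retinoic acid, 0 of 33 members were called by limma, where 5.29% of all genes were and 3.82% were called higher. At an unadjusted p below 0.05, 5 members were higher (Acsl4, Acadl, Acadm, Acadsb and Abcd3) and 0 lower, against 9.39% and 7.03% of all genes. The arrays did not overlap with controls for 11 members, all higher, where 12.9% of all genes were higher and 11.2% lower without overlap. Of the 31 members above background, 20 had a difference above 0 (54.8% of all such genes). Over all 33 it was 22. This number was 19 after quantile normalization and 28 after centring arrays on their medians, and the share of all called genes that were higher, 72.2%, was 54.6% and 84.5%. The median difference was 0.08 over the mitochondrial and 0.13 over the peroxisomal members above background, against 0.03 over all such genes. The mitochondrial median was -0.0059 without charcoal replicate 2, 0.014 without retinoic acid replicate 1, 0.13 without charcoal replicate 3 and 0.032 after quantile normalization. The peroxisomal median was 0.041 without charcoal replicate 2, 0.22 without retinoic acid replicate 3 and 0.048 after quantile normalization. The 95% interval lay within 1.5-fold either way for 25 of 33 members.

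With TTNPB, 0 of 33 members were called by limma, where 1.26% of all genes were. At an unadjusted p below 0.05, Hadh and Abcd3 were higher and none was lower, against 5.57% and 5.65% of all genes. Arrays did not overlap for Hadha, Hadhb, Hadh and Etfa on the higher side and Acad11 on the lower, against 8.83% and 9.11% of all genes. Acad11, a dehydrogenase for long chains and 4-hydroxy acids, read 6.17, 6.09 and 6.24 in controls and 5.86, 5.99 and 6.00 with TTNPB, a difference of -0.22 (adjusted p = 0.513). With retinoic acid it read 6.12, 6.17 and 6.01, and with GW1516 6.10, 6.07 and 6.30, both overlapping with the controls. The median difference with TTNPB was 0.10 over the mitochondrial and 0.09 over the peroxisomal members, against 0.00 over all genes above background. Leaving out an array moved the mitochondrial median to between 0.039 (without charcoal replicate 2) and 0.16 (without charcoal replicate 3), and the peroxisomal median to between 0.020 (without charcoal replicate 2) and 0.19 (without TTNPB replicate 2). Of the 31 members above background, 23 had a difference above 0 (50.3% of all such genes).

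Retinoic acid and TTNPB, at the same dose and time, were compared directly for all 33 members. By limma 0 differed, where 0.153% of all genes did, and at an unadjusted p below 0.05 only Acads, the short-chain dehydrogenase, was lower with retinoic acid (2.94% of all genes, with 4.33% higher). Acads read 8.04, 8.04 and 8.08 with retinoic acid and 8.12, 8.22 and 8.35 with TTNPB, a difference of -0.18 (95% interval -0.34 to -0.01, adjusted p = 0.641). The difference was 0.42 for Acadsb (-0.00 to 0.85), 0.23 for Acadl (-0.00 to 0.45) and 0.13 for Abcd3 (-0.24 to 0.49). For 26 of 33 members the interval lay within 1.5-fold either way, and for the others larger differences were not excluded by these arrays. Cyp26b1, the retinoic acid hydroxylase and a known RAR target, was 2.62 above controls with retinoic acid and 0.60 above with TTNPB, and this difference of 2.02 passed (adjusted p = 1.13e-05).

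GW1516 was compared with each RAR ligand in the same way. Against retinoic acid 0 members differed by limma, where 0.352% of all genes did, with 1 higher and 1 lower at an unadjusted p below 0.05 (4.22% and 5.08% of all genes). These were Acot1, at 0.62 (95% interval 0.30 to 0.94, adjusted p = 0.117), and Hadh, at -0.25. Against TTNPB 0 differed, where 0.0676% of all genes did, with 4 higher and 4 lower at an unadjusted p below 0.05 (5.69% and 4.78% of all genes). The 4 higher were Acsl4 (0.51), Acot1 (0.50), Acadm (0.37) and Acadl (0.35), and the 4 lower were Etfb, Hadh (-0.33), Acads and Acat1. The genes that rose with GW1516 were thus not shown to differ between the ligands, and for Acsl4 and Acadm against retinoic acid the intervals were -0.08 to 0.60 and -0.09 to 0.59. Without GW1516 replicate 3, 1 member differed from TTNPB, Acot2.

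With palmitate, 0 of 33 members were called by limma, where 0.681% of all genes were. At an unadjusted p below 0.05, 3 members were higher (Acads, Hsd17b10 and Acaa2) and 4 lower (Acad9, Acad11, Acox3 and Hsd17b4), against 2.26% and 4.74% of all genes. Arrays did not overlap for 3 members on the higher side and 6 on the lower, against 6.46% and 8.76%. Of the 30 members above background, 10 had a difference above 0 (42.1% of all such genes). Over all 33 this number was also 10, and 16 after quantile normalization. The median was -0.04 over the mitochondrial and -0.18 over the peroxisomal members above background, against -0.03 over all such genes. Leaving out an array moved the mitochondrial median to between -0.075 (without full-medium replicate 1) and 0.024 (without full-medium replicate 3), and the peroxisomal median to between -0.26 (without palmitate replicate 1) and -0.11 (without full-medium replicate 3).

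Acad9 read 4.31, 3.95 and 4.17 in full-medium controls and 3.27, 3.43 and 3.76 with palmitate, all below the controls. The difference of -0.66 ± 0.16 (SE) had an adjusted p of 0.0827. It passed with array weights (0.00486) and when dim genes were left out (0.0465). Acaa2 read 6.95, 7.37 and 7.12 in controls and 7.49, 7.46 and 7.53 with palmitate, all above the controls (0.35 ± 0.09, SE, adjusted p = 0.0954). Without full-medium replicate 2, the highest control, Acaa2 passed at 0.46 (adjusted p = 0.0235). Acad11 read 4.68, 4.56 and 4.35 in controls and 4.08, 4.17 and 4.28 with palmitate, all below (-0.35, adjusted p = 0.249). Acad11 was counted here with the mitochondrial steps, and its place in the cell was not examined. Mitochondrial values lay on both sides of 0, with the dehydrogenase Acad9 below and the thiolase Acaa2 above. Acads (0.20) and Hsd17b10 (0.28), also without overlap, had adjusted p-values of 0.482 and 0.320.

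Of the peroxisomal genes, Acox3 read 1.42, 1.43 and 1.55 in full-medium controls and 1.34, 0.77 and 1.10 with palmitate. The palmitate arrays were all lower (-0.40, adjusted p = 0.495), at a signal not far above the background of 0.63 with palmitate. Hsd17b4 read 4.79, 4.95 and 4.94 in controls and 4.81, 4.52 and 4.44 with palmitate, which overlapped (-0.31, adjusted p = 0.609). Abcd3 read 1.96, 2.34 and 2.30 in controls and 1.98, 1.75 and 2.03 with palmitate, also with overlap (-0.28, adjusted p = 0.934). Ehhadh, at 0.62, 0.47 and 0.77 in controls and 0.46, 0.59 and 0.81 with palmitate, was close to background. In this set no peroxisomal member had arrays wholly above its controls.

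The genes that rose with GW1516 were not called with palmitate. Acsl4 read 1.47, 1.73 and 1.64 in full-medium controls and 2.0, 1.57 and 2.27 with palmitate (0.33 ± 0.16, SE, adjusted p = 0.735). Acadl read 5.53, 5.49 and 5.49, and 5.52, 5.73 and 5.64 with palmitate (0.13). Acadm read 4.15, 4.28 and 4.41, and 4.18, 4.13 and 4.24 with palmitate (-0.10). All 3 overlapped with their controls. Of the other members given by array, Acadsb read 1.35, 1.27 and 1.59, and 1.66, 1.22 and 1.92 with palmitate, and Acadvl read 3.07, 3.78 and 3.61, and 3.50, 3.33 and 3.55. Both groups of these genes overlapped as well. Hadha read 7.54, 7.51 and 7.68, and 7.51, 7.48 and 7.33 with palmitate, just without overlap (-0.14). Hadh read 8.45, 8.43 and 8.57, and 8.46, 8.51 and 8.43. Etfb read 7.52, 7.22 and 7.39, and 7.55, 7.42 and 7.34, while Decr1 was near background at 0.72, 0.71 and 0.65, and 0.49, 0.47 and 0.70. These 3 genes differed by -0.14 to 0.06, and the 12 members not named for palmitate by -0.21 to 0.07.

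The palmitate effect was set against the GW1516 and retinoic acid effects, each over its own control, at unequal doses and in unlike serum. The charcoal and full-medium sets may also have been scaled apart. That could change the size of a log2 difference, and these p-values do not measure it. Limma called 0 members against GW1516, where 1.26% of all genes were called, with 3 higher and 7 lower at an unadjusted p below 0.05 (4.0% and 7.03% of all genes). It called 0 against retinoic acid, where 2.56% were, with 3 higher and 4 lower (4.22% and 8.41% of all genes). Abcd3 had the lowest of these differences, at -0.83 against GW1516 (95% interval -1.35 to -0.32, adjusted p = 0.121) and -0.88 against retinoic acid (-1.40 to -0.37, adjusted p = 0.0653). Acadm was at -0.72 against GW1516 (-1.20 to -0.23, adjusted p = 0.164). Without GW1516 replicate 3, Acot2 passed against GW1516, and without full-medium replicate 1, Abcd3 passed against retinoic acid. The interval lay within 1.5-fold either way for only 7 and 10 of 33 members in these comparisons, so they were less precise than those within a serum.

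Genes that feed or regulate the pathway were listed by role, and most were not called. In the carnitine shuttle and its malonyl-CoA control, 1 of 10 measured genes rose with GW1516 and 1 fell with palmitate. With retinoic acid and TTNPB 0 were called. Of all genes, 5.29% were called with retinoic acid, 1.26% with TTNPB, 2.57% with GW1516 and 0.681% with palmitate. Cpt1a, the rate-limiting carnitine palmitoyltransferase and a known PPARd target, read 7.15, 7.01 and 7.20 in charcoal controls and 7.91, 7.84 and 7.75 with GW1516. All GW1516 arrays were above, by 0.71 ± 0.10 (SE, adjusted p = 0.00116), which was 0.197 on the 6 arrays alone. Leaving out any 1 of these 6 arrays gave 0.66 to 0.76, and the call held. Acaca, which makes the malonyl-CoA that inhibits Cpt1, read 5.96, 5.78 and 5.70 in full-medium controls and 4.95, 4.87 and 5.14 with palmitate. It fell by 0.83 ± 0.11 (SE, adjusted p = 0.00106), and the adjusted p was 0.0772 on the full-medium arrays alone.

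Of 17 measured regulators (PPARs, RXRs, other transcription factors such as Esrra, coactivators, corepressors, and the enzymes Prkaa1, Prkaa2, Sirt3 and Pdk4), 2 rose with retinoic acid, 1 each with TTNPB, GW1516 and palmitate, and 0 fell. The shares of all genes called were 5.29% with retinoic acid, 1.26% with TTNPB, 2.57% with GW1516 and 0.681% with palmitate. Ppargc1a, the coactivator PGC-1α that drives oxidative genes, read 7.40, 7.41 and 7.41 in charcoal controls, 7.87, 7.91 and 8.06 with retinoic acid, 7.77, 7.78 and 7.74 with TTNPB, and 8.09, 8.17 and 8.03 with GW1516. The controls were nearly identical and all 9 treated arrays lay above them. The differences were 0.54 (adjusted p = 0.000896), 0.36 (0.0481) and 0.69 (0.000514), each ± 0.09 (SE). The TTNPB call was lost under 10 of 17 alternatives, among them each left-out array (adjusted p-values of 0.114 to 0.166), and the GW1516 call on the 6 arrays alone (0.177). When any 1 of those 6 arrays was left out, the GW1516 difference was 0.65 to 0.73 and its call held. In full medium Ppargc1a read 3.37, 3.52 and 3.48, and 3.48, 3.49 and 3.49 with palmitate. The palmitate effect was lower than the GW1516 effect by limma (-0.66, adjusted p = 0.0115), across sets that may have been scaled apart.

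**Figure D5:**
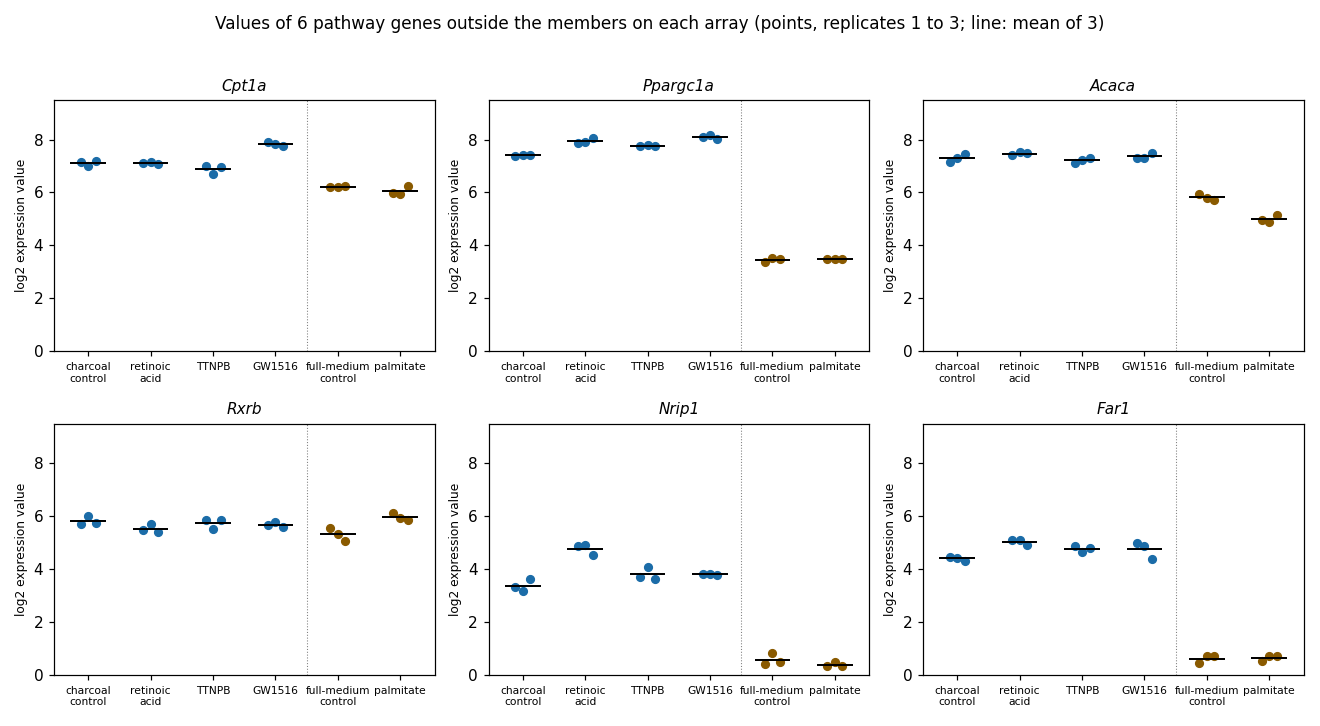
Deposited log2 values (y axis) of Cpt1a, Ppargc1a, Acaca, Rxrb, Nrip1 and Far1 on each array, with replicates 1 to 3 as points and the group mean as a line; the dotted line separates the charcoal set (blue) from full medium (brown). Ppargc1a is above its 3 controls (7.40 to 7.41) on all 9 ligand arrays, and Cpt1a (7.75 to 7.91) with GW1516 only.

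Nrip1, the corepressor RIP140 and a known RAR target, rose by 1.39 with retinoic acid (adjusted p = 5.62e-05). Rxrb, an RXR partner of PPAR and RAR, read 5.56, 5.31 and 5.06 in full-medium controls and 6.11, 5.92 and 5.87 with palmitate, all above the controls. It rose by 0.66 ± 0.14 (SE, adjusted p = 0.0309), a call lost under 10 of 17 alternatives, with adjusted p-values of 0.193 on its own arrays and 0.0858 after quantile normalization. Of 20 other genes of peroxisomal lipid metabolism, 2 rose with retinoic acid, where 5.29% of all genes were called and 3.82% called higher. With TTNPB, GW1516 and palmitate 0 were called (1.26%, 2.57% and 0.681% of all genes). The genes that rose were Far1 and Agps, which make the fatty alcohol and the ether bond of plasmalogens.

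Far1 read 4.46, 4.43 and 4.32 in charcoal controls and 5.08, 5.10 and 4.89 with retinoic acid (0.62 ± 0.15, SE, adjusted p = 0.0178). Agps read 3.98, 3.54 and 3.79 in controls and 4.44, 4.71 and 4.26 with retinoic acid (0.70 ± 0.19, SE, adjusted p = 0.0404). Neither gene's arrays overlapped with controls. Both calls were lost after quantile normalization (0.0629 and 0.192) and without charcoal replicate 2 or 3 or retinoic acid replicate 1 or 2. Of 13 peroxisome biogenesis genes, 0 were called by limma in the 4 comparisons with control. The shares of all genes called were 5.29% with retinoic acid, 1.26% with TTNPB, 2.57% with GW1516 and 0.681% with palmitate. At an unadjusted p below 0.05 there were 4 higher and 1 lower with retinoic acid (9.39% and 7.03% of all genes). There were 1 higher with TTNPB (5.57%), 2 higher with GW1516 (8.04%) and 2 higher with palmitate (2.26%). Of 13 genes of ketone body and branched-chain oxidation, 0 were called with TTNPB, GW1516 or palmitate (1.26%, 2.57% and 0.681% of all genes). With retinoic acid 1 rose, where 5.29% of all genes were called and 3.82% called higher. This was Aldh6a1, of valine breakdown, at 0.61 ± 0.15 (SE, adjusted p = 0.0217), which was 0.30 (adjusted p = 0.195) when its probe sets were averaged. Without charcoal replicate 1 or 3 or retinoic acid replicate 1 or 2 its adjusted p was 0.0635 to 0.0918.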

How the data were processed

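NaF cells were measured on 18 Affymetrix mouse arrays, 6 groups of 3, grouped by their labels. The authors deposited log2 values, for 41345 probe sets on each array. That scale was inferred from their range. Partek is named in the submitters' processing notes, with no version, and the background correction and normalization are not given in the sources used here. Array values carry no counting depth, and the number of arrays limits the precision.

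Probe sets with 1 gene symbol were kept (23521; 1814 had several and 16010 none), and symbols were updated by Entrez number against GRCm38.p6 for 23328. Each of the resulting 22180 genes was represented by its brightest probe set (highest mean over the 18 arrays). Low signal excluded none, so all 33 measured members were tested. A group-means model over 18 arrays was fitted by limma 3.58.1 under R 4.3.3 (moderated variances with a trend, 12 residual degrees of freedom). P-values are two-sided and adjusted over all genes per comparison, at a threshold of 0.05, and errors are standard errors of the fit. The scripts were tested on simulated data.

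The members and gene lists were chosen with earlier results of these data known, and the background definition was chosen after the values were seen. Given by array were members past the threshold, the 2 highest and 2 lowest differences per comparison among members above background, and Acadl, Acadm, Acadvl, Hadha, Ehhadh, Hsd17b4 and Acot2. Pathway genes were named where past the threshold, plus Cpt1a and Cyp26b1. The promoters shown were chosen after the values were seen. The labels do not say that same-numbered replicates share a day or culture, so they were not paired. Correlations of their deviations from group means were -0.231 to 0.212. The highest were with TTNPB, at 0.208 for replicate 2 and 0.212 for replicate 3. Alternatives were a stricter threshold, fewer arrays, a replicate block, other variance models and scalings, array weights, no dim genes, averaged probe sets, and leaving out each array.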

Additional observations from a re-analysis of the deposited data

How the results depend on the processing

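The counts of members called with TTNPB and between retinoic acid and TTNPB were 0 under every alternative run. Numbers marked "in all" are the genes called among all 22180, or among fewer with dim genes left out. With retinoic acid (0 with all arrays) the count was 3 on the arrays of the comparison alone (1852 in all) and with dim genes left out (1492 in all). It was 2 with array weights (2014 in all). It was 1 without a variance trend (1282 in all), with robust variances (1200 in all) and after quantile normalization (1286 in all). When an array was left out it was 0 to 1 (583 to 932 in all). With GW1516 (3) it was 0 at a threshold of 0.01 and on the comparison's own arrays (3 in all). It was 1 on the charcoal set alone (412 in all) and after median centring (299 in all), and 0 to 3 when an array was left out (198 to 711 in all). It was 2, without Acadm, after quantile normalization (736 in all) and with averaged probe sets (544 in all). With array weights it was 3 (1122 in all), with Acot2 in place of Acadm. With palmitate (0) it was 2 with array weights (661 in all) and with dim genes left out (228 in all). It was 0 to 1 when an array was left out (62 to 141 in all). GW1516 against retinoic acid gave 1 after quantile normalization (128 in all), and against TTNPB 0 to 1 when an array was left out (4 to 45 in all). The palmitate effect against that of GW1516 gave 1 with array weights (849 in all) and 0 to 1 when an array was left out (125 to 611 in all). Against that of retinoic acid it gave 2 on its own arrays (982 in all) and with array weights (1449 in all). It gave 1 with dim genes left out (820 in all), and 0 to 1 when an array was left out (306 to 496 in all). Acot2 turned to -0.085 without GW1516 replicate 1 and -0.014 without replicate 2, neither near the threshold (adjusted p = 0.906 and 0.987), and was 0.73 without replicate 3. With the replicate block, retinoic acid gave 1 member (Acadsb, 1031 in all) and GW1516 the same 3 (498 in all), and no other count moved. Leaving dim genes out tests fewer genes; the cause of the other shifts was not tested. Signal over background limits Acaa1b, Hadhb, Decr1 and Ehhadh most.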
